A study of Homo sapiens with 14 samples.

Results

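Ser5-phosphorylated RNA polymerase II was read at the promoters of 7 DNA repair genes with a known link to p53: DDB2, XPC, POLH, REV3L, RRM2B, FANCC and PCNA. The genes were chosen by name, each has 1 window of 1000 bp in a table of 28159 windows, and all 7 were found. The cells were wild-type HCT116, a human colorectal carcinoma line, and chromatin was precipitated with the antibody 3E8, which binds the polymerase when Ser5 of its C-terminal repeats carries a phosphate. A bivalent stapled peptide was electroporated into some of the cells, the others were electroporated without it, and all were then kept for 3 h in medium. The ChIP libraries were 2 of cells in 10 µM Nutlin3a, 1 of cells in 10 µM Nutlin3a with peptide, 1 of cells in 0.1% DMSO with peptide and 2 of cells in 0.1% DMSO. Peptide cells received 10 µM at electroporation and another 200 nM in the medium, and both peptide libraries are replicate 2. Each of the 4 conditions also has 2 input libraries, made from chromatin that was not precipitated. The series title gives the aim as blocking the contact between p53 and Mediator with this peptide.

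Nutlin3a keeps MDM2 off p53, so that p53 escapes degradation and accumulates. p53 binds DNA as a tetramer at a pair of half-sites and raises transcription of its targets, among which are genes that recognise damaged bases, supply deoxynucleotides or copy past lesions. Phosphorylation of Ser5 accompanies initiation and promoter escape, so this form of the polymerase gathers near transcription starts. DDB2 and XPC find ultraviolet lesions for nucleotide excision repair, POLH and REV3L are translesion polymerases, PCNA is the sliding clamp on which they work, RRM2B is a small subunit of ribonucleotide reductase, and FANCC is part of the Fanconi core complex for crosslink repair.

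With Nutlin3a, DDB2, REV3L and XPC had the highest ratios to DMSO of the 7, and every Nutlin3a library lay above every DMSO library at these 3 genes. The same held at 4.76% of all tested windows. Over all 6 ChIP libraries the fitted ratio was 1.72-fold at DDB2, 1.68-fold at REV3L and 1.501-fold at XPC. None of the 7 genes passed an adjusted p of 0.05 in edgeR's quasi-likelihood test on all 25901 tested windows with no replicate term, and this depended on the settings. DESeq2 called DDB2 and REV3L over the same 6 libraries, where it called 26 of 25901 windows higher. Tested on only the 11461 windows with a mean count of at least 50, edgeR called REV3L (adjusted p = 0.0437). Of these windows, 24 passed as higher. The peptide gave no detectable difference at any of the 7, with wide intervals.

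The ChIP libraries held 1290223 to 2240951 counts in all windows and the inputs 161719 to 359276. Total counts differed by library, so levels are given as CPM, which is relative to the library's total, scaled by TMM to match the bulk of windows between libraries. The first principal component of all windows held 53.3% of the variance. On it Nutlin3a replicate 1 stood furthest out at -112, DMSO replicate 1 lay at -33 and the replicate 2 libraries at 16.2 to 46.5. Of 8 colon epithelium markers 3 had a ChIP level of at least 2 times input, their summed level being 597 to 782 CPM with Nutlin3a and 623 to 854 CPM with DMSO. The counterpart was 2 of 5 for blood cell markers, with 120 to 216 CPM under Nutlin3a and 184 to 229 CPM under DMSO. For mesenchyme it was 0 of 5, with 34.8 to 50.4 CPM under Nutlin3a and 16.5 to 48.4 CPM under DMSO. Their part in the results was not tested. In bulk chromatin, more cells with the polymerase at a promoter and more polymerase per cell cannot be told apart.

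The windows were laid by coordinate and were not turned with the strand. Of 8682 plus-strand genes with a RefSeq start in their window, 82.5% had 300 bp upstream and 699 bp downstream of it. Of 8273 minus-strand genes, 87.6% had 700 bp upstream and 299 bp downstream. XPC, REV3L and PCNA, all on the minus strand, thus had mostly upstream sequence counted. DDB2 and POLH, on the plus strand, had 332 and 344 bp upstream. FANCC has 2 annotated starts in its window. DDB2, REV3L and PCNA each have a further start that lies outside, at 47214454, 111483218 and 5126622.

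The window of DDB2 runs from 47214642 to 47215641 on chromosome 11 (hg38), that of XPC from 14178302 to 14179301 on chromosome 3 and that of FANCC from 95316955 to 95317954 on chromosome 9. POLH lies at 43575841 to 43576840 and REV3L at 111483412 to 111484411, both on chromosome 6. The window of PCNA is on chromosome 20 from 5119659 to 5120658. Each holds an annotated start and so the promoter and the first transcribed bases of its gene. Most of the windows are shared with a divergent or antisense neighbour. XPC shares 785 bp with the window of LSM3, POLH 898 bp with XPO5, REV3L 760 bp with TRAF3IP2-AS1 and PCNA 627 bp with PCNA-AS1. Reads there were counted for both genes and no strand was stated, so the polymerase of the member and of its neighbour cannot be told apart. DDB2 and FANCC share their windows with no other gene.

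**Figure D1:**
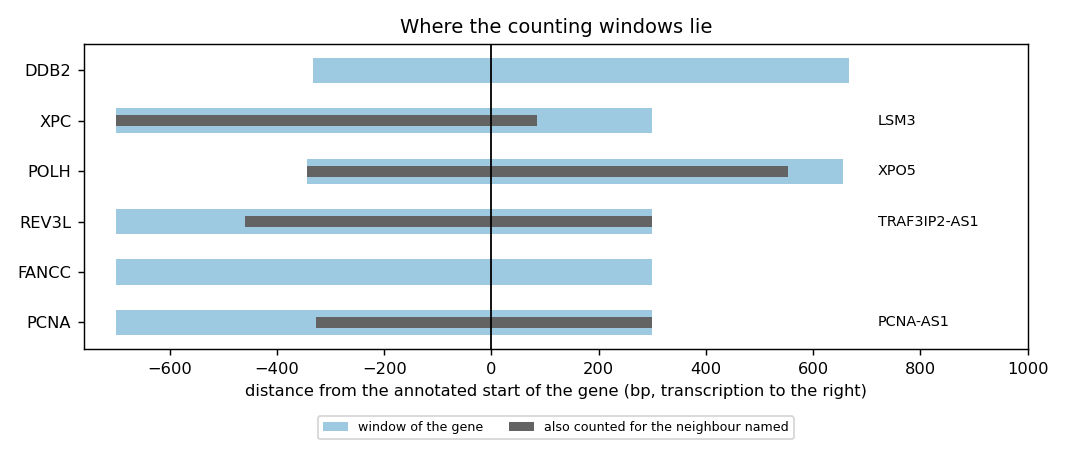
Position of the counting window of 6 genes, in bp from an annotated start (x axis, transcription to the right). Pale bars are the windows and dark bars the stretch also counted for the neighbour named at the right, which covers 627 to 898 bp of the 4 windows that have one; DDB2 and FANCC have none.

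The promoters of the 3 genes with the highest ratios, and that of PCNA, are shown because a p53 motif was found in DDB2 and PCNA and not in XPC and REV3L. Sequences are RefSeq's for GRCh38.p14, 5′ to 3′ on the strand of the gene, and capitals mark p53 half-sites. They run from 250 bases before the start to the start, and for DDB2 to base 25 after it, where its motif ends. DDB2 is at chr11:47214724-47214999 (plus strand), XPC at chr3:14178602-14178851, REV3L at chr6:111483712-111483961 and PCNA at chr20:5119959-5120208 (all minus strand).
DDB2: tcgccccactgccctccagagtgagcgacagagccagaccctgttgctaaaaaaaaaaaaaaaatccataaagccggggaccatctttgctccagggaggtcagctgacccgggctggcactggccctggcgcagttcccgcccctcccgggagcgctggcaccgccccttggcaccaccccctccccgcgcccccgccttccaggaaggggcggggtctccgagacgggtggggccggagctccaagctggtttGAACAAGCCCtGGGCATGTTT
XPC: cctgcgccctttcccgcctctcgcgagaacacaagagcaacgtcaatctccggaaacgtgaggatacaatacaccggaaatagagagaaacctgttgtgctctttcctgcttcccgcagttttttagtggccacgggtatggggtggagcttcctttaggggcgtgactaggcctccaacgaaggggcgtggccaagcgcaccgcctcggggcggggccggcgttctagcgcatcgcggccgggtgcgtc
REV3L: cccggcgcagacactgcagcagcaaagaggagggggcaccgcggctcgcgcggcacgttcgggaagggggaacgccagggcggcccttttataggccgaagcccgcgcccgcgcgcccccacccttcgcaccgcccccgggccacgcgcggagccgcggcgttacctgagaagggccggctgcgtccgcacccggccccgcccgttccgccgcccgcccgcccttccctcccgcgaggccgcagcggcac
PCNA: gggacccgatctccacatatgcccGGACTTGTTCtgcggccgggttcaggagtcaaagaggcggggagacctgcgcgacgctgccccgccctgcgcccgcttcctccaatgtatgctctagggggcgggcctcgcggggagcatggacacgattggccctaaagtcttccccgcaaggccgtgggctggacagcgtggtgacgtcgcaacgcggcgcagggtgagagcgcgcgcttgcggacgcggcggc

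The pattern of the p53 half-site, 10 bases long, is its own reverse complement, so that a search of 1 strand covers both, and a full site was taken as 2 half-sites up to 13 bases apart. In DDB2 both half-sites lie 5 to 25 bases after the start, with 1 base between them, inside the counted window. Full sites were found in 10 of 35116 RefSeq promoters of 300 bases (0.0285%). In PCNA a single half-site lies at bases -226 to -217 relative to the start, and half-sites were found in 6.63% of all promoters. The GC box GGGCGG, a Sp1-type element searched on both strands, was found at all 7 promoter starts that lie in a member window, against 45.0% of promoters. These starts belong to 6 genes, FANCC having 2, and RRM2B was not analysed here for motifs. CCAAT, the NF-Y type element, was found only at PCNA among those starts, against 34.6% of promoters. At the starts of DDB2, REV3L and PCNA outside their windows, no p53 half-site was found. The outside start of DDB2 had CCAAT and no GC box. A match is a run of letters, and that no p53 half-site was found in XPC, POLH, REV3L and FANCC says only that its letters are not in these 300 bases.

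All windows have the same length, so levels can be set side by side. Under Nutlin3a the mean level over 3 libraries was 173 ± 19.7 CPM at PCNA, 141 ± 20.1 at REV3L, 111 ± 7.61 at POLH, 97.6 ± 7.57 at XPC, 97.0 ± 10.8 at DDB2, 69.5 ± 9.16 at RRM2B and 60.0 ± 5.36 CPM at FANCC (SD). Under DMSO it was 145 ± 16.7 CPM at PCNA, 98.3 ± 7.20 at POLH, 83.1 ± 11.6 at REV3L, 74.3 ± 7.89 at FANCC, 64.8 ± 14.6 at XPC, 56.3 ± 7.11 at DDB2 and 52.3 ± 7.63 CPM at RRM2B (SD, n = 3). PCNA, which every replicating cell needs, was highest in both. XPC and DDB2 differed by less than their SDs under Nutlin3a. Under DMSO each neighbouring pair from REV3L down to RRM2B differed by less than the larger of the 2 SDs.

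**Figure D2:**
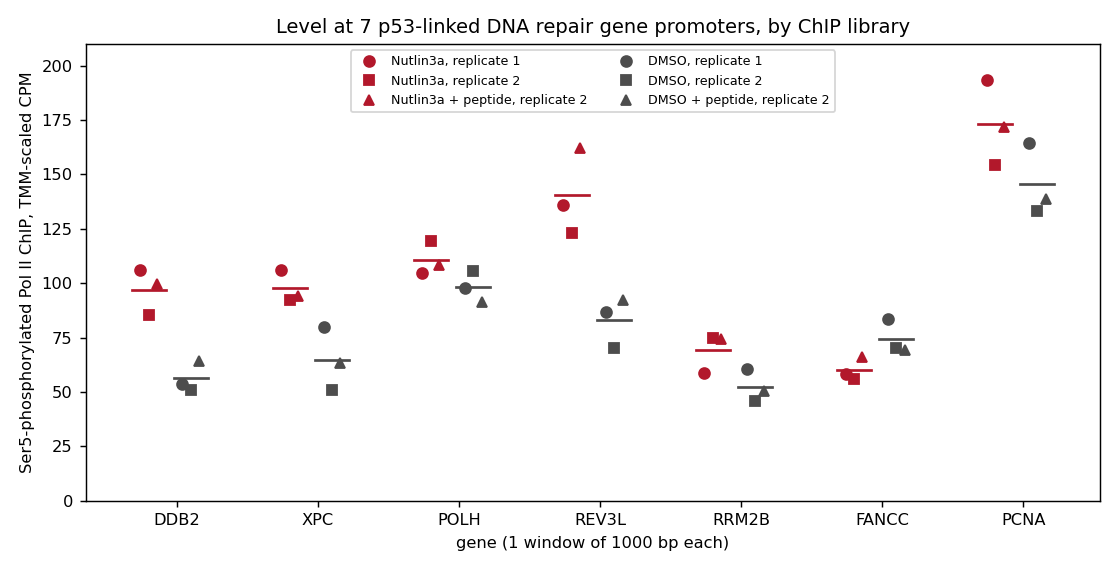
TMM-scaled CPM (y axis, linear) of Ser5-phosphorylated polymerase at each gene, 1 point per ChIP library, Nutlin3a left of DMSO, with a bar at the mean of 3. At DDB2 the Nutlin3a libraries lie between 85.2 and 106 CPM and the DMSO libraries between 51.0 and 64.4 CPM. FANCC is the gene whose Nutlin3a libraries all lie below DMSO, as at 4.82% of tested windows.

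Against input, the mean level of all 6 ChIP libraries was at least 2 times higher at 4 of the 7 genes. Of all tested windows 8.69% reached that ratio. PCNA stood at 3.28 times the mean of the 8 inputs, at the 96.5th percentile of tested windows. REV3L had a ratio of 2.16, XPC of 2.07 and POLH of 2.07. With only the 2 DMSO libraries without peptide, it was 2.97 at PCNA, 1.96 at POLH, 1.62 at XPC and 1.47 at REV3L. Under DMSO, then, PCNA alone reached 2. FANCC had 1.55, DDB2 1.44 and RRM2B 0.626, where the median of all windows was 0.713. At DDB2 the mean of the 2 Nutlin3a libraries without peptide was 1.83 times input and that of the DMSO libraries 0.953 times. RRM2B had the highest input level, 97.1 ± 26.6 CPM (SD, n = 8), and its ChIP level was below input under both treatments. The inputs are shallow, with 1 to 45 counts per member window, and each library is scaled to its own counts, so these ratios rank windows only.

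DDB2 encodes the damage-binding protein that marks ultraviolet lesions in chromatin for XPC. Its window had 106, 85.2 and 99.5 CPM in Nutlin3a replicate 1, Nutlin3a replicate 2 and Nutlin3a with peptide, against 53.5, 51.0 and 64.4 CPM in DMSO replicate 1, DMSO replicate 2 and DMSO with peptide. The groups did not overlap, and the lowest of the Nutlin3a libraries was replicate 2. Without peptide the log2 fold change was 0.87 ± 0.22 (SE), which ranked 16th by p of 25901 windows, with an adjusted p of 0.982 in edgeR. Over all 6 libraries it was 0.78 ± 0.17, with an unadjusted p of 0.00017 and an adjusted p of 0.200 in edgeR. The DESeq2 adjusted p for DDB2 was 0.0455.

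XPC encodes the sensor of helix distortion that starts global genome repair. It had 106, 92.4 and 94.1 CPM in Nutlin3a replicate 1, Nutlin3a replicate 2 and Nutlin3a with peptide, against 80.0, 51.0 and 63.3 CPM in DMSO replicate 1, DMSO replicate 2 and DMSO with peptide. The groups did not overlap, and DMSO replicate 1 was the highest of its group. The log2 fold change was 0.59 ± 0.24 without peptide and 0.59 ± 0.19 over all 6 libraries (SE), with edgeR adjusted p of 0.982 and 0.999. Its neighbour LSM3, which encodes an RNA-binding protein of the splicing machinery, gave 0.47 ± 0.21 over the 6 libraries from a window that is mostly the same.

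REV3L is the catalytic subunit of polymerase zeta, which extends from bases placed opposite a lesion. It had 136, 123 and 162 CPM in Nutlin3a replicate 1, Nutlin3a replicate 2 and Nutlin3a with peptide, against 86.8, 70.1 and 92.4 CPM in DMSO replicate 1, DMSO replicate 2 and DMSO with peptide. The groups did not overlap, and in both the peptide library was the highest. The log2 fold change was 0.72 ± 0.22 without peptide and 0.75 ± 0.17 over the 6 libraries (SE), with edgeR adjusted p of 0.982 and 0.274. The DESeq2 adjusted p over the 6 libraries was 0.0101. TRAF3IP2-AS1, the noncoding gene that shares most of the window, had 0.61 ± 0.18.

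POLH encodes polymerase eta, which copies past pyrimidine dimers without error and is lost in the variant form of xeroderma pigmentosum. It had 105, 119 and 108 CPM in Nutlin3a replicate 1, Nutlin3a replicate 2 and Nutlin3a with peptide, against 97.9, 106 and 91.3 CPM in DMSO replicate 1, DMSO replicate 2 and DMSO with peptide. The groups overlapped. Its log2 fold change over the 6 libraries was 0.18 ± 0.17 (SE), with a 95% interval of 0.886-fold to 1.44-fold. This overlaps the intervals of DDB2 (1.34-fold to 2.20-fold) and REV3L (1.31-fold to 2.16-fold). A difference between genes was not tested. XPO5, the exporter of microRNA precursors that shares 898 bp with it, had 0.16 ± 0.17.

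PCNA, the clamp that carries polymerases at the fork and is ubiquitinated to call in translesion polymerases, had 193, 154 and 172 CPM in Nutlin3a replicate 1, Nutlin3a replicate 2 and Nutlin3a with peptide. In DMSO replicate 1, DMSO replicate 2 and DMSO with peptide it had 164, 133 and 139 CPM. DMSO replicate 1 lay above Nutlin3a replicate 2, so the groups overlapped. The log2 fold change was 0.25 ± 0.18 (SE) over the 6 libraries, an interval of 0.917-fold to 1.54-fold.

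RRM2B, also called p53R2, provides deoxynucleotides for repair outside S phase. Its window lies on chromosome 8 from 102238532 to 102239531. It had 58.9, 75.0 and 74.5 CPM in Nutlin3a replicate 1, Nutlin3a replicate 2 and Nutlin3a with peptide, against 60.8, 45.9 and 50.4 CPM in DMSO replicate 1, DMSO replicate 2 and DMSO with peptide. The replicate 1 libraries were alike, and only the replicate 2 libraries were apart. Over the 6 libraries the log2 fold change was 0.41 ± 0.19 (SE), with an unadjusted p of 0.0380 and an adjusted p of 0.999 in edgeR; DESeq2 gave an unadjusted p of 0.0538.

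FANCC helps to ubiquitinate FANCD2 and FANCI at stalled forks. It had 58.1, 55.8 and 66.0 CPM in Nutlin3a replicate 1, Nutlin3a replicate 2 and Nutlin3a with peptide, against 83.4, 70.1 and 69.4 CPM in DMSO replicate 1, DMSO replicate 2 and DMSO with peptide. All Nutlin3a libraries lay below all DMSO libraries, as at 4.82% of tested windows, by a gap smaller than the range within either group. The log2 fold change was -0.43 ± 0.23 without peptide and -0.31 ± 0.18 over the 6 libraries (SE), and with the authors' constants as the scaling its sign flips to 0.07 and 0.16. FANCC did not pass in edgeR, with adjusted p of 0.982 and 0.999.

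Counted over the 7 genes, 0 passed the adjusted threshold in edgeR without peptide, where 0.00772% of all windows passed as higher. At an unadjusted p under 0.05, 3 were higher (DDB2, XPC and REV3L) and 0 lower, against 1.27% and 1.05% of windows. Over all 6 libraries 0 passed the adjusted threshold, against 0.0618% of windows higher, and 4 were higher at an unadjusted p under 0.05, RRM2B being the fourth, against 1.69% of windows, with 0 lower against 1.18%. Without DMSO replicate 2 the unadjusted counts were 1 (DDB2) and 2 (DDB2 and REV3L). Without Nutlin3a replicate 2, edgeR called DDB2 in the comparison without peptide (adjusted p = 0.0387). With the replicate 2 libraries alone, an alternative chosen after seeing the data that has 1 residual degree of freedom, edgeR called 3 of the 7 (DDB2, XPC and REV3L). In that fit 51 of 22990 windows were called higher and 8 lower. The median log2 fold change of the 7 was 0.33 without peptide and 0.41 over 6 libraries, beside 0.04 and 0.03 for all windows. DDB2, XPC and REV3L were among the 4.76% of windows with all Nutlin3a libraries above all DMSO libraries, and FANCC among the 4.82% with all below.

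**Figure D3:**
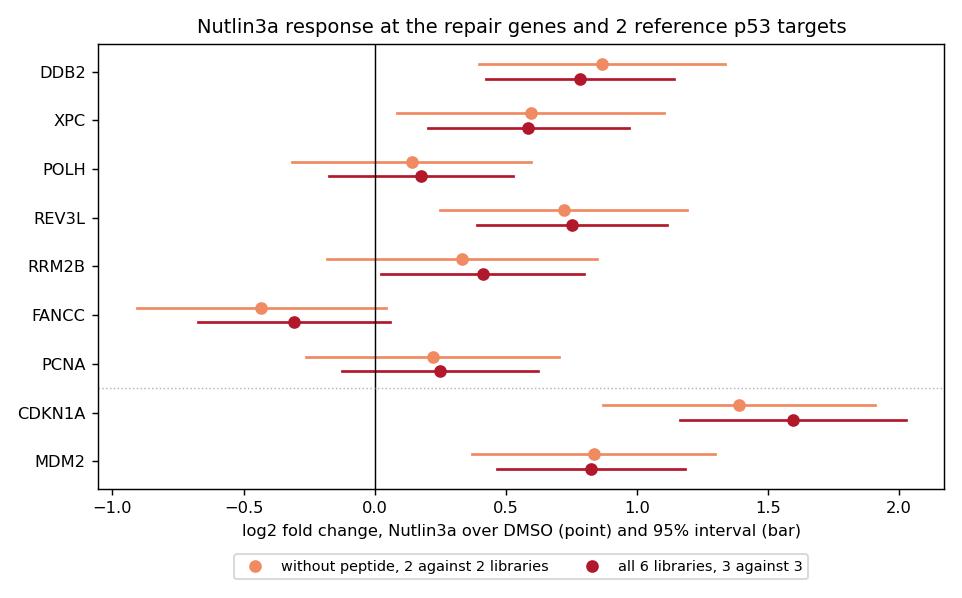
Log2 fold change of Nutlin3a over DMSO (x axis) with its 95% interval from edgeR, without peptide (pale) and over all 6 ChIP libraries (dark), for the 7 genes and, below the dotted line, CDKN1A and MDM2. DDB2 at 0.78 and REV3L at 0.75 lie near MDM2 at 0.82, and CDKN1A at 1.60 lies highest; FANCC lies below 0 here and at 0.16 with the authors' constants.

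CDKN1A, the p21 cell cycle inhibitor, and MDM2, the ligase of p53, gave the scale of the response. CDKN1A had 249, 357 and 461 CPM in Nutlin3a replicate 1, Nutlin3a replicate 2 and Nutlin3a with peptide, against 107, 125 and 115 CPM in DMSO replicate 1, DMSO replicate 2 and DMSO with peptide. It rose 3.02-fold over the 6 libraries, with an adjusted p of 0.000705 in edgeR. MDM2 had a ratio of 1.77-fold and an edgeR adjusted p of 0.135, close to DDB2 and REV3L in both.

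Because replicate 1 and replicate 2 stood apart, the ratio of Nutlin3a to DMSO was also taken within each of the 3 pairs of libraries. Intervals here are 95% intervals of counting error only. At DDB2 the ratio was 1.99 (1.54 to 2.57) in replicate 1, 1.67 (1.28 to 2.18) in replicate 2 and 1.55 (1.23 to 1.95) in replicate 2 with peptide. At REV3L it was 1.57 (1.27 to 1.94), 1.75 (1.41 to 2.20) and 1.76 (1.46 to 2.13) in the same order of pairs. XPC had 1.33 (1.05 to 1.67), 1.81 (1.40 to 2.35) and 1.49 (1.18 to 1.89). In these genes all 3 pairs thus had an interval above 1. How many of all windows do so was not counted, and the intervals leave out the spread between libraries. Of all tested windows 54.1%, 50.7% and 49.25% had a ratio above 1 in the same order of pairs. RRM2B differed between pairs, with 0.969 (0.720 to 1.297) in replicate 1, 1.63 (1.24 to 2.17) in replicate 2 and 1.48 (1.14 to 1.93) in replicate 2 with peptide. FANCC had 0.697, 0.796 and 0.951, and its interval lay below 1 in replicate 1 alone. POLH ran from 1.07 to 1.19 and PCNA from 1.16 to 1.24. The interval of PCNA lay above 1 only in replicate 2 with peptide (1.05 to 1.46), and that of POLH in no pair.

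**Figure D4:**
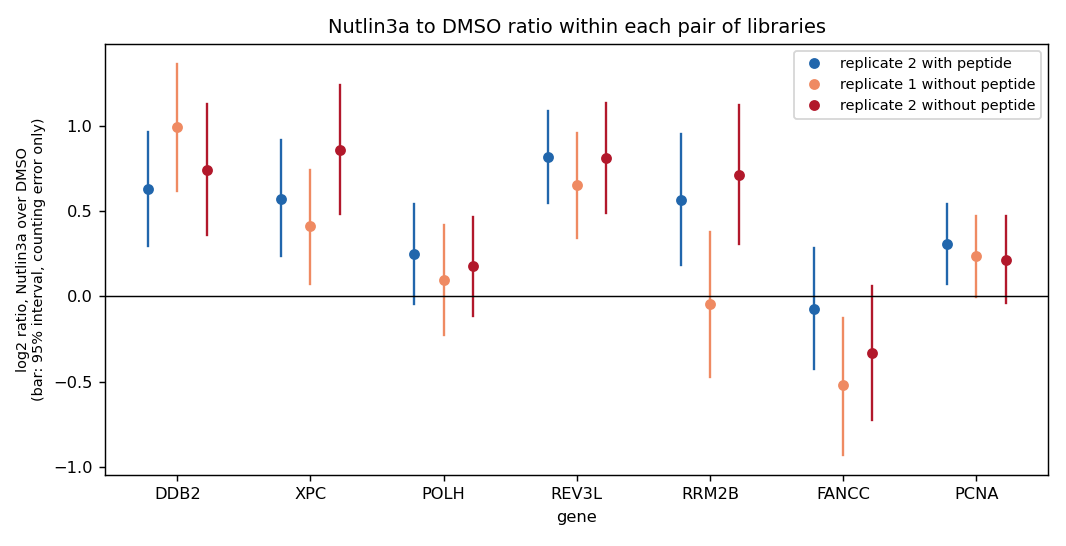
Log2 ratio of Nutlin3a over DMSO within each pair of libraries (y axis), with bars for the 95% interval of counting error only. DDB2, XPC and REV3L have whole intervals above 0 in all 3 pairs, and the points of POLH and PCNA also lie above 0 in all 3. Within a pair, 49.25% to 54.1% of all tested windows lie above 0. RRM2B lies at 0.969-fold in replicate 1 and above 1.4-fold in both replicate 2 pairs. FANCC lies below 0 in all 3 under TMM but has a positive log2 fold change with the authors' constants.

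Whether the peptide altered the Nutlin3a response was tested as the response with peptide minus the response without it. At DDB2 the difference was -0.24 on the log2 scale (95% interval -1.03 to 0.55), or 0.847-fold (0.488 to 1.47). At REV3L it was 0.09 (-0.71 to 0.90) and at XPC -0.02 (-0.90 to 0.86). FANCC had the lowest p, with a difference of 0.36 (-0.45 to 1.17) and an edgeR adjusted p of 1.00. At an unadjusted p under 0.05, 0 of the 7 passed, against 1.05% of windows in either direction. The median interval reached 0.81 to either side, so a loss of the whole DDB2 response lies within its interval and the data do not show that the peptide leaves it intact. Each peptide group is 1 library, assumed to vary like the other groups.

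The peptide was also compared with no peptide under each treatment. Under Nutlin3a the 7 log2 fold changes ran from -0.07 at XPC to 0.33 at REV3L (95% interval for REV3L -0.22 to 0.88), with 0 at an unadjusted p under 0.05 against 2.44% of windows. Under DMSO they ran from -0.16 at POLH to 0.30 at DDB2 (95% interval for DDB2 -0.27 to 0.87), with 0 against 1.52% of windows. All edgeR adjusted p were 1.00. These comparisons share libraries with each other and with those above, so they are not independent readings.

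The other genes of these pathways were read in the same fit. Of 84 further genes in 5 lists, 83 were tested over the 6 libraries, RPA3 being too low. The fold change was positive at 27 and negative at 56, with a median of -0.09, where 53.6% of all windows were positive, and with the authors' constants it was positive at 81 and negative at 2. At an unadjusted p under 0.05, 0 were higher and 3 lower, against 1.69% and 1.18% of all windows, and 0 passed the adjusted threshold. WDR48, a partner of the deubiquitinase USP1, was the 1 gene with a log2 fold change at or above that of RRM2B, at 0.42 ± 0.24 (SE), in a window shared with SCN11A. None reached XPC.

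Among 28 excision repair genes 8 were positive, with a median of -0.08 and a range of -0.26 to 0.29. XPA, the scaffold of the incision complex, had 0.29 and ERCC6, the transcription-coupled repair factor, 0.24, whereas the single-strand binding subunit RPA1 had -0.26 and the ligase LIG1 -0.24. The median was -0.02 over 16 translesion genes, from USP1 at -0.30 to WDR48 at 0.42. For 14 nucleotide supply genes it was -0.20, with thymidylate synthase TYMS at 0.27 and DCTD, the deaminase that makes its substrate, at -0.34. The 14 Fanconi genes had a median of -0.15, and FANCL, the ubiquitin ligase of the core complex, and UBE2T, its conjugating enzyme, had -0.48 ± 0.20 and -0.52 ± 0.23 (SE), with edgeR adjusted p of 0.999 for both. The 11 clamp loaders and partners had a median of -0.14, and POLE, the leading strand polymerase, had -0.35 ± 0.17 in a window shared with PXMP2. No list had a gene that passed. With the authors' constants the median of all windows in this comparison is 0.49, beside 0.03 with TMM, and the medians of the 5 lists become 0.28 to 0.48. The sign of a list's median thus depends on the scaling, and under both scalings it lies below that of all windows.

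**Figure D5:**
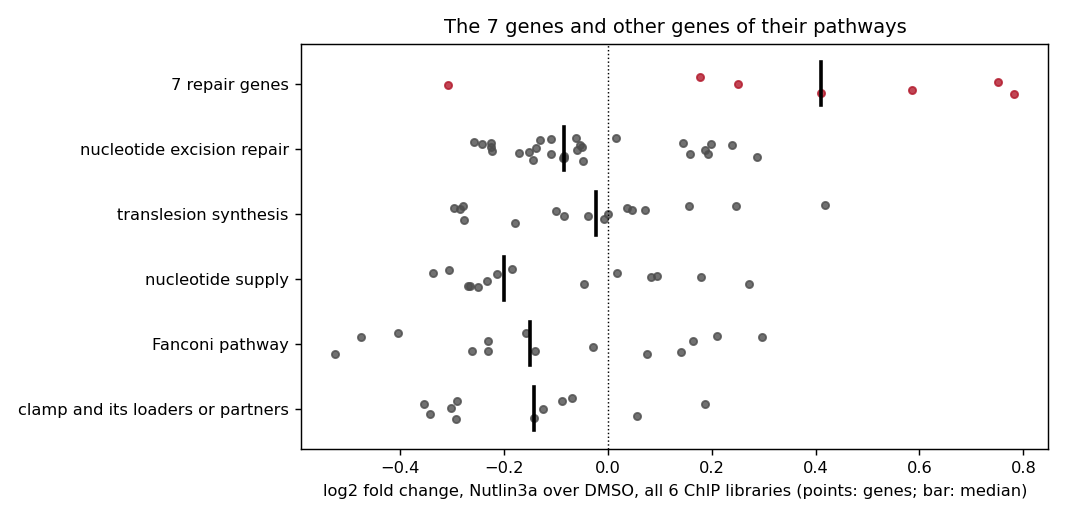
Log2 fold change of Nutlin3a over DMSO over all 6 ChIP libraries (x axis), 1 point per gene, with a bar at the median of each list, for the 7 genes at the top and 5 lists of their pathway partners below. The 7 have a median of 0.41 and the lists medians of -0.20 to -0.02; with the authors' constants the list medians are 0.28 to 0.48 and FANCC, the leftmost of the 7, is positive.

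Among the 7 genes themselves, levels over the 6 libraries ran together most closely for DDB2 and REV3L (Pearson r = 0.955) and for XPC and PCNA (r = 0.911), and DDB2 and FANCC ran most opposite (r = -0.761). Of the windows at or above the median abundance, the most like DDB2 was CPNE8 (r = 0.994), the most like XPC GCA (r = 0.996), the most like POLH KLF11 (r = 0.994) and the most like REV3L BAG1 (r = 0.989). Next for REV3L came PGPEP1 (r = 0.989) and then DRAM1, a p53 target that acts in autophagy (r = 0.981). RRM2B was most like UNC5B (r = 0.992), followed by E2F7, a repressor of cell cycle genes (r = 0.988). Windows of rank 2 or 3 are named only for REV3L and RRM2B, so the named genes are not an even sample. FANCC was most like TUBA1B (r = 0.995) and PCNA most like EGR3 (r = 0.995). With 6 libraries that share 2 treatments, such values are reached by many windows and are a description.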

How the data were processed

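Ser5-phosphorylated polymerase ChIP-seq and inputs of HCT116 cells were used. Per the labels' protocols, cells were fixed with formaldehyde, chromatin was sonicated, and libraries were made with a KAPA kit. The authors deposited raw read counts per window, on hg38 per the submitters' processing notes, and per the file headers a scaled signal for each ChIP library, which equals the counts times 1 constant per library (1.82 for Nutlin3a replicate 1, 0.595 to 0.748 for the others). How the constants were derived, the aligner and the read filters are not given in the sources used here. The signal served only as an alternative scaling.

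Window counts were compared by edgeR 4.0.16 under R 4.3.3 (quasi-likelihood, TMM factors 0.951 to 1.02, filterByExpr with a minimum count of 10), which left 25901 of 28159 windows, all 7 genes among them. Adjusted p are Benjamini-Hochberg values over all tested windows, with a threshold of 0.05. A model of 4 group means over the 6 ChIP libraries (2 residual degrees of freedom, 14.7 prior) gave every comparison except Nutlin3a against DMSO over all 6 libraries, which had terms for peptide and Nutlin3a (3 residual, 18.1 prior). SEs are the log2 fold change over the root of the F statistic. Pair ratios carry exact binomial intervals, which cover counting error only, since reads have no molecular identifiers. The code was tested on simulated data. DESeq2 1.42.0 and limma 3.58.1 were alternatives, as were other scalings, filters, a replicate block and leaving out each library.

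The genes, the 5 pathway lists and the tests were chosen with earlier results of these data known. Named from each list were up to 2 genes of the smallest p in each direction, and for each of the 7 genes the 3 windows of highest r. Some genes that these rules name are not reported here. Nothing in the labels says whether replicates are separate cultures, so p-values measure the spread between these libraries. Groups were taken from titles and treatment labels. Motifs were searched in RefSeq promoters, matched by symbol.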

Additional observations from a re-analysis of the deposited data

How the results depend on the processing

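Across 15 settings for all 6 libraries, DDB2, REV3L, XPC, RRM2B, POLH and PCNA kept a positive log2 fold change, DDB2 from 0.67 to 1.29, REV3L from 0.68 to 1.24 and XPC from 0.42 to 1.07. The upper ends came from the authors' constants, with which 96.3% of all windows were positive, beside 53.6% in the edgeR test with TMM. What moved was the call. Over 6 libraries, 0 genes passed the adjusted threshold in the edgeR test and in limma-voom, 1 (REV3L, adjusted p = 0.0437) with windows of a mean count of at least 50, 2 in DESeq2 and 2 with the replicate block (DDB2 0.00426 and REV3L 0.00533). Leaving out libraries gave 0 to 3, with 3 without replicate 1, where 51 of 22990 windows were called higher. At an unadjusted p under 0.05 the count ran from 2 to 4 when libraries were left out, and was 5 under the authors' constants and under the mean count of at least 50. Under the constants 1904 of 25901 windows were higher at that threshold, beside 439 with TMM, so the whole set of windows shifted too. Under the mean count of at least 50 it was 253 of 11461 windows. Without peptide, the replicate block called 1 (DDB2, adjusted p = 0.0438), leaving out a library gave 0 to 1 (DDB2, adjusted p = 0.0387 without Nutlin3a replicate 2), and the unadjusted count ran from 1 to 3. The cause was not tested.

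The replicate numbers carry no stated batch and form 2 pairs. The replicate 2 minus replicate 1 differences correlated at 0.454 between Nutlin3a and DMSO over 25901 windows. With the block, 39 windows of all tested were called higher without peptide, beside 2 without the block, and 53 higher and 7 lower over 6 libraries, beside 16 and 0.

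The authors' constants moved the median of the 7 genes to 0.78 without peptide, 0.83 over 6 libraries and -0.32 for the peptide under Nutlin3a, while the median of all windows moved to 0.53, 0.49 and -0.33. FANCC became 0.071 and 0.16. For the peptide's effect on the response, signs turned with the constants (REV3L -0.022, PCNA -0.059), with a mean count of at least 50 (POLH -0.050, REV3L -0.074, PCNA -0.086) and when libraries were left out (XPC -0.39 to 0.26, REV3L -0.072 to 0.23, PCNA -0.086 to 0.25).

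With 1290223 to 2240951 counts per ChIP library, intervals on single fold changes span about 0.37 on the log2 scale to either side over 6 libraries and 0.81 for the peptide's effect.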

Other observations

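Of the 10 RefSeq promoters with a full p53 site by the search used for DDB2, 5 had their start in a tested window. All 5 had a positive Nutlin3a to DMSO log2 fold change over the 6 libraries, but DDB2, whose value was already known, is 1 of them. LNCTAM34A, a noncoding transcript antisense to the host gene of miR-34a, passed at 1.09 ± 0.20 (SE), with an adjusted p of 0.0395 in edgeR and mean levels of 85.7 CPM under Nutlin3a and 40.0 CPM under DMSO. DDB2 had 0.78 ± 0.17. MCC had 0.48 ± 0.26, PURPL 0.35 ± 0.93 and DYNC2H1 0.25 ± 0.43, which did not pass. Mean levels were low at PURPL, with 4.34 CPM under Nutlin3a and 3.41 CPM under DMSO. They were also low at DYNC2H1, with 11.1 and 9.31 CPM. Of all tested windows 53.6% were positive. These genes were gathered after the DDB2 match was seen, so the shared sign is a description only.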
